A study of Homo sapiens with 6 samples.

Results

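The genes described here are 34 genes of the unfolded protein response of the endoplasmic reticulum (ER) and of the stress response run by the transcription factor ATF4, measured by mRNA sequencing in CCM3-knockout and wild-type endothelial cells. They were chosen by symbol from a list of known ER chaperones, stress sensors and ATF4 targets, with no threshold on their values. Earlier results of these data were known when they were chosen. All 34 were found among the 28514 gene rows of the count table, and all 34 passed the filter on low counts that left 14548 genes for testing. They were sorted by role into 17 ER chaperones, folding enzymes and degradation factors, 4 genes for the stress sensors and XBP1, 8 genes for ATF4 with its regulators, and 5 enzymes of serine, one-carbon and asparagine synthesis.

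The cells were CI-huVEC, an immortalised endothelial line derived from human umbilical veins, all at passage 31. There were 3 wild-type lines, WT 1, WT 2 and WT 4, and 3 lines of genotype CCM3 -/-, K17, K18 and K19, made by CRISPR/Cas9 cutting at exon 3. CCM3, also called PDCD10, is mutated in families with cerebral cavernous malformations, clusters of dilated leaky vessels of the brain. The comparison asks how the expressed mRNAs of the knockout lines differ from those of the wild type. Each knockout line is 1 clone. The clone field reads HKO for all 6 samples, wild type included, with no explanation, and nothing states that WT 1, WT 2 and WT 4 are separate clones. P-values therefore measure only how far these samples spread, in part perhaps technically, and loss of CCM3 and clonal selection cannot be told apart.

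Unfolded protein in the ER is sensed by the membrane proteins IRE1 (gene ERN1), PERK (gene EIF2AK3) and ATF6. IRE1 splices the XBP1 mRNA and ATF6 is cut to release a transcription factor, and both products switch on genes for chaperones and for the degradation of misfolded protein. PERK phosphorylates the translation factor eIF2, which slows protein synthesis in general but favours translation of the ATF4 mRNA. ATF4 then switches on genes for amino acid synthesis and transport and for feedback on the response, and it does the same when amino acids run short, through another eIF2 kinase. Splicing of XBP1, cleavage of ATF6 and translation of ATF4 are not visible in counts per gene.

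The promoter sequences that carry the known binding elements of these pathways are shown first. Sequences are from the RefSeq promoter windows of the assembly GRCh38.p14, which run from 250 bases before to 50 bases after a gene's start, and 32 of the 34 genes had a window. Those printed lie upstream of the start and read 5′ to 3′ on the gene's strand, with the matched element in capitals. The ER stress element (ERSE), CCAAT followed by 9 free bases and CCACG, is recognised by ATF6 with the factor NF-Y, and ERSE-II, ATTGG followed by 1 free base and CCACG, is a shorter form of it. Both strands were searched for exact matches only, so variant forms of either element were not counted. An ERSE was found in 0.0769% of the 35116 windows and in 0.0916% of the 27305 genes with a window. Among the 32 genes it was found in 7 (CALR, CANX, CRELD2, HSP90B1, HSPA5, PDIA6 and XBP1). An ERSE-II was found in 0.0541% of windows and in 0.0696% of genes with a window. Among the 32 genes it was found in 3 (HERPUD1, HYOU1 and SDF2L1). HSPA5 (chr9:125241364-125241483, minus strand) has 1 exact match to the ERSE, 66 bases before the start. HYOU1 (chr11:119057256-119057405, minus strand) has 2 ERSE-II matches, both on the opposite strand and so printed as the reverse complement, 185 and 79 bases before the start. XBP1 (chr22:28800590-28800679, minus strand) has 1 exact match to the ERSE, 52 bases before the start. HSP90B1 (chr12:103930200-103930349, plus strand) has 2, the second on the opposite strand, 194 and 89 bases before the start.
HSPA5: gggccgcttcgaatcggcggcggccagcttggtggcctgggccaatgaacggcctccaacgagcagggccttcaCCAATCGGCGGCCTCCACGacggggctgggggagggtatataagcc
HYOU1: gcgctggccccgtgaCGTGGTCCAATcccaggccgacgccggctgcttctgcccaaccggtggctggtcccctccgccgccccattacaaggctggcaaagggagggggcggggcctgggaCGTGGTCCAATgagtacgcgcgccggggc
XBP1: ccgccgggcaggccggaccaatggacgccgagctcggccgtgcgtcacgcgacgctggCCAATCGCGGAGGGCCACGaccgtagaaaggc
HSP90B1: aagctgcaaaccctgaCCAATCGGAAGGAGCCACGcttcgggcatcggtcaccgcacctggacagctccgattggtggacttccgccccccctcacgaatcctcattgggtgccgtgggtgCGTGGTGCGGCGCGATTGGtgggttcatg

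For the ATF4 branch, the composite C/EBP-ATF element (CARE) was searched as TGATGNAA. It was found in 3.62% of windows, in 4.46% of genes with a window and in 3 of the 32 genes (ASNS, CHAC1 and HERPUD1). The cAMP response element TGACGTCA, a palindrome bound by ATF and CREB proteins, was found in 1.85% of windows and 2.25% of genes with a window. Among the 32 genes it was found in PPP1R15A alone. No matches of different elements overlapped in these windows. The CARE of ASNS (chr7:97872439-97872518, minus strand) lies 68 bases before the start, that of CHAC1 (chr15:40953241-40953290, plus strand) lies on the opposite strand 209 bases before the start, and the element of PPP1R15A (chr19:48872321-48872400, plus strand) lies 58 bases before the start. A match describes the letters of the window and is not evidence of binding.
ASNS: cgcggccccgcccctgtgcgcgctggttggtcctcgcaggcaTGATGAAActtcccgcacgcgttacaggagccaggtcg
CHAC1: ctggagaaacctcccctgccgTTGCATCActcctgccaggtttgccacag
PPP1R15A: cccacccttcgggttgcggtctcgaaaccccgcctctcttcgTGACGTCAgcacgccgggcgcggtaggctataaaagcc

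Total counts per library ran from 28280417 to 32919491, so that 3 counts corresponded to between 0.0903 and 0.1084 CPM, the count scaled to library size with TMM factors. Values are given in the order WT 1, WT 2, WT 4 and K17, K18, K19 throughout. The targeted gene PDCD10 stood at 60.5, 60.7 and 61.6 CPM in the wild-type lines and 42.3, 31.6 and 37.6 CPM in the clones, lower in every clone, with a log2 fold change of -0.71 (SE 0.11, adjusted p = 0.00374) for knockout over wild type, or -0.44 with the trend on GC content described below removed. The deposited counts do not show whether the remaining mRNA carries an intact exon 3. The 12 endothelial markers were all above 1 CPM in at least 1 library and summed to between 2968 and 3130 CPM in the wild-type lines and between 4872 and 5423 CPM in the clones. Of the 12, 9 were called higher in the test described below, where 18% of all tested genes were. CDH5, FLT1 and ERG were not called, with log2 fold changes of 0.18, -0.03 and -0.08. Summed markers of smooth muscle and pericytes (6 genes, 3 of them below 1 CPM in every library) were 299 to 314 against 20.5 to 32.8 CPM. Between wild-type lines and clones the RGS5 mean went from 300.6 to 10.4 CPM, nearly all of that fall. ACTA2 went the other way, from a mean of 3.88 to 13.5 CPM (log2 fold change 1.80). MYH11 had a log2 fold change of 0.84, at a mean below 1 CPM in both groups. Summed markers of epithelium (6 genes, CDH1 at 0 throughout) were 243 to 262 against 352 to 629 CPM. Those of leukocytes (6 genes, 4 below 1 CPM throughout) were 20.2 to 24.3 against 37.6 to 42.5 CPM. KRT18 made up most of the epithelial sum (group means 238 and 457 CPM) and CD68 most of the leukocyte sum (22.2 and 37.8 CPM). Fibroblast markers (6 genes, 3 below 1 CPM throughout) summed to at most 9.17 CPM in any library. The part of these differences in the results was not tested.

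Of the 34 genes, 13 fell and 3 rose in the clones, against a background in which 38.7% of all tested genes were called. The call was an adjusted p below 0.05 in edgeR's quasi-likelihood test with Benjamini-Hochberg adjustment over all 14548 genes, of which 2612 (18%) were called higher and 3025 (20.8%) lower. The share called among the 34 was 47.1%, close to that background, and what they show is which genes moved and by how much. Their median log2 fold change was -0.17, against 0.0021 over all tested genes. The groups did not overlap for 17 genes that were lower and 3 that were higher, where 31% of all genes were lower and 24.5% higher without overlap, 55.5% in all. In bulk RNA, a lower level per cell and fewer cells that express a gene cannot be told apart. Without WT 1, WT 2 or WT 4, 7, 10 or 9 of the 34 were called, where 20.9%, 22.8% or 20.4% of all genes were. Without K18 or K19, 13 or 11 were called, where 30.2% or 30.3% of all genes were, and without K17 27 were called, where 62.6% of all genes were. At an adjusted p below 0.01, 7 of the 34 and 19.8% of all genes were called.

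GC content moved with the fold changes and is given here because it differs among the roles. The 10% of tested genes lowest in GC had a median log2 fold change of -0.24 and the 10% highest in GC one of 0.63. The 13 genes that fell had a median GC content of 46.0% and the 3 that rose one of 62.0%, against 50.4% over all 34. When the trend on GC was removed within each library, 3 of the 34 were called higher and 12 lower, where 41.1% of all genes were called, 24.5% higher and 16.6% lower. Over the 13278 tested genes with a GC value, the split was 2409 higher and 2876 lower before and 3257 higher and 2199 lower after the trend was removed, and their median log2 fold change moved from -0.004 to 0.06. Fold changes with this trend removed are given below wherever they ended a call, turned a direction or moved a called value more than 1.5 times. The part of GC content in the results was not tested further.

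**Figure D1:**
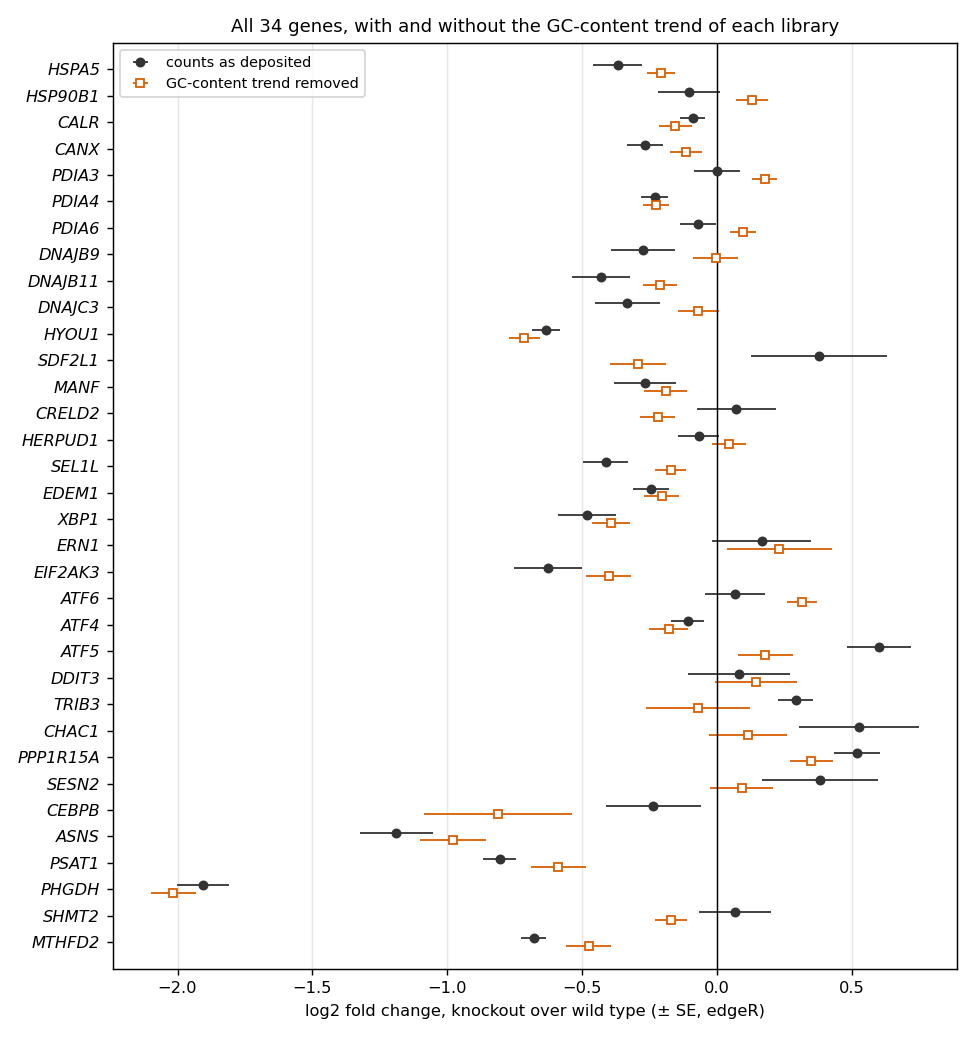
Log2 fold changes of the 34 genes, knockout over wild type, as fitted and with the GC trend of each library removed; error bars are standard errors. PHGDH stays lowest in both (-1.91 and -2.02), whereas TRIB3 moves from 0.29 to -0.07 and HSP90B1 from -0.10 to 0.13.

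Of the 4 roles, the lowest median was that of the enzymes of serine, one-carbon and asparagine synthesis, at a log2 fold change of -0.81, and 4 of these 5 fell while none rose, where 20.8% of all tested genes were called lower. PHGDH, which catalyses the first step from the glycolytic intermediate 3-phosphoglycerate towards serine, fell to 0.267 of its wild-type level. It stood at 32.6, 32.9 and 29.3 CPM in the wild-type lines and 8.28, 9.07 and 7.96 CPM in the clones. The clones lay within a narrow band far below the wild-type lines, and the log2 fold change was -1.91 (SE 0.10, adjusted p = 7.26e-05), or -2.02 (adjusted p = 7.74e-06) with the GC trend removed. ASNS, which makes asparagine from aspartate, stood at 50.8, 52.03 and 52.5 CPM in the wild-type lines and 24.8, 25.3 and 18.1 CPM in the clones. All clones lay below every wild-type line, with K19 lowest, and the log2 fold change was -1.19 (SE 0.13, adjusted p = 0.00124).

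PSAT1, the aminotransferase that follows PHGDH, stood at 148, 142 and 143 CPM in the wild-type lines and 78.1, 82.6 and 87.1 CPM in the clones. The clones did not overlap with the wild type, the ratio of means was 0.572, and the log2 fold change was -0.81 (SE 0.06, adjusted p = 0.000255). MTHFD2, the mitochondrial one-carbon enzyme that oxidises methylene-tetrahydrofolate, stood at 217, 210.5 and 213 CPM in the wild-type lines and 131, 135 and 134 CPM in the clones. Replicates of both groups were tight and apart, with means of 213 ± 3.07 CPM in the wild-type lines and 133 ± 2.32 CPM in the knockout clones (mean ± SD, n = 3 each) and a log2 fold change of -0.68 (SE 0.05, adjusted p = 0.000198). MTHFD2 overlaps SLC4A5, whose log2 fold change was -0.55 (adjusted p = 0.0044), and since no source used here states the strand setting of the counting its value carries that limit, although MTHFD2 had 10.2 times the wild-type CPM of SLC4A5.

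SHMT2, the mitochondrial enzyme that moves a carbon from serine to folate, was the exception. It stood at 219, 217 and 203 CPM in the wild-type lines and 180.2, 261 and 227 CPM in the clones, with K17 below every wild-type line, K18 above all of them and K19 above as well. The log2 fold change was 0.07 (SE 0.13, adjusted p = 0.708), and -0.17 with the GC trend removed. Without K17 it was called higher at 0.20. The calls of PHGDH, ASNS, PSAT1 and MTHFD2 held at an adjusted p below 0.05 in all 17 alternatives, including every library left out and the GC trend removed.

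**Figure D2:**
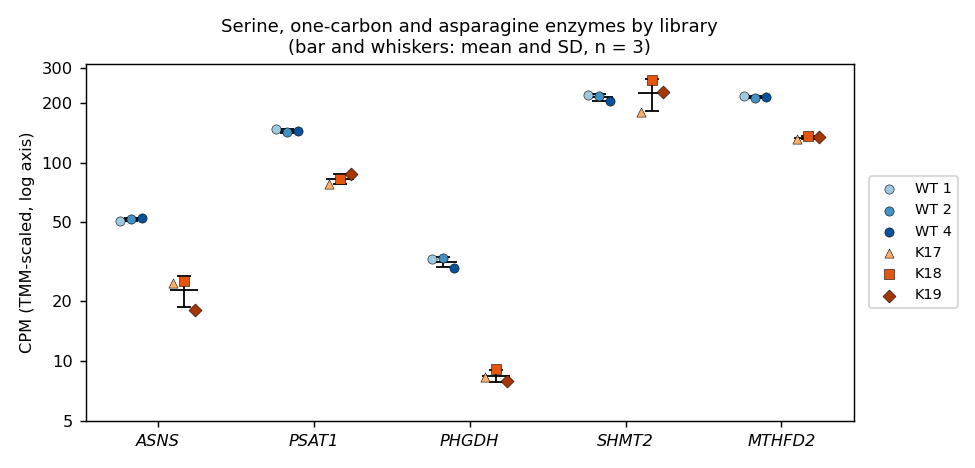
CPM of the 5 enzymes of serine, one-carbon and asparagine synthesis in each wild-type line and knockout clone, on a log axis, with the mean and SD of each group as bar and whiskers. PHGDH, ASNS, PSAT1 and MTHFD2 lie lower in all 3 clones, and the SHMT2 values of the clones (180 to 261 CPM) spread around those of the wild type.

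Among the 17 ER chaperones, folding enzymes and degradation factors, 7 fell, none rose and 10 were not called, with a median log2 fold change of -0.25. The share called, 41.2%, was near the 38.7% of all tested genes. With the GC trend removed 6 were lower and 1 higher, where 41.1% of all genes with a GC value were called. HYOU1, a large HSP70-related chaperone of the ER that is induced by hypoxia, had the largest fall. It stood at 385, 371 and 355 CPM in the wild-type lines and 243, 237 and 236 CPM in the clones. The clones were nearly identical and far below the wild type, with means of 370.3 ± 15.2 CPM in the wild-type lines and 239 ± 3.57 CPM in the knockout clones (mean ± SD, n = 3 each) and a log2 fold change of -0.63 (SE 0.05, adjusted p = 0.000319), or -0.71 (adjusted p = 0.000135) with the GC trend removed. This call held in all 17 alternatives, and HYOU1 is the gene shown above with a pair of ERSE-II matches.

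HSPA5, also called BiP, is the central HSP70 chaperone of the ER and holds the stress sensors inactive. It stood at 1156, 1098 and 1104 CPM in the wild-type lines and 990.3, 816 and 797 CPM in the clones. All clones were lower, K17 least, and the log2 fold change was -0.37 (SE 0.09, adjusted p = 0.0203), or -0.21 with the GC trend removed. The call ended without WT 1, WT 2, WT 4, K18 or K19. DNAJB11, a DnaJ co-chaperone of BiP, stood at 125, 126 and 122 CPM in the wild-type lines and 108, 86.2 and 82.1 CPM in the clones with a log2 fold change of -0.43 (SE 0.11, adjusted p = 0.0227). K17 was again closest to the wild type, the value was -0.21 with the GC trend removed, and the call ended without WT 1, WT 2, WT 4, K18 or K19.

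HSP90B1, the HSP90 of the ER, carries an ERSE as HSPA5 does, and did not pass the test. It stood at 1556, 1532 and 1551 CPM in the wild-type lines and 1718, 1280.1 and 1319 CPM in the clones. K17 lay above every wild-type line and K18 and K19 below them, so the groups overlapped, and the log2 fold change was -0.10 (SE 0.11, adjusted p = 0.492). It was 0.13 with the GC trend removed, whereas without K17 the gene was called lower at -0.24. PDIA3, a disulfide isomerase that works with the lectin chaperones, showed the same order of clones at 859, 836 and 862 CPM in the wild-type lines and 965, 771 and 821 CPM in the clones. Its log2 fold change was -0.00 (SE 0.09, adjusted p = 0.999), and with the GC trend removed it was called higher at 0.18 (adjusted p = 0.0211). A pseudogene, PDIA3P, had 6.86 CPM in the wild type, so PDIA3 had 124 times its CPM. The PDIA3 gene overlaps ELL3, which had 7.03 CPM in the wild type and a log2 fold change of 0.35 (adjusted p = 0.0496).

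The lectin chaperones CANX and CALR, which bind newly made glycoproteins, were among the most abundant members. CANX stood at 1142, 1092 and 1122 CPM in the wild-type lines and 990.4, 848 and 949.5 CPM in the clones, with every clone lower and a log2 fold change of -0.27 (SE 0.07, adjusted p = 0.0212). The call ended with the GC trend removed, at -0.11 (adjusted p = 0.156), and without WT 1, WT 2, WT 4 or K19. CALR stood at 986, 968 and 967 CPM in the wild-type lines and 950.3, 885 and 910.4 CPM in the clones. Its clones were lower than every wild-type line by a small margin, and the log2 fold change of -0.09 (SE 0.05, adjusted p = 0.161) did not pass, except without K17, where it was -0.11.

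Of the other disulfide isomerases, PDIA4 stood at 386, 368 and 355 CPM in the wild-type lines and 319.6, 312 and 314 CPM in the clones. The clones agreed closely and lay below the wild type, with a log2 fold change of -0.23 (SE 0.05, adjusted p = 0.0133), called in the full fit but not when WT 1 or WT 2 was left out. PDIA6 overlapped between the groups at 450.0, 433 and 432 CPM in the wild-type lines and 456, 393 and 405 CPM in the clones. Its log2 fold change was -0.07 (adjusted p = 0.435), 0.10 with the GC trend removed, and it was called lower at -0.13 without K17. The PDIA6 gene overlaps ATP6V1C2, which had 5.48 CPM in the wild type.

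The co-chaperones DNAJB9, which also restrains IRE1, and DNAJC3, which inhibits PERK, were not called. DNAJB9 had 28.4, 24.2 and 25.5 CPM in the wild-type lines and 24.3, 18.8 and 21.6 CPM in the clones, with K17 reaching the lowest wild-type line, and a log2 fold change of -0.27 (adjusted p = 0.112). DNAJC3 had 86.95, 76.1 and 77.01 CPM in the wild-type lines and 73.98, 54.9 and 61.8 CPM in the clones, with no overlap and a log2 fold change of -0.33 (adjusted p = 0.0701). MANF, a secreted ER protein that also protects neurons, had 108, 104 and 108 CPM in the wild-type lines and 103, 86.8 and 75.5 CPM in the clones, with no overlap and a log2 fold change of -0.27 (adjusted p = 0.109). Without K17 the log2 fold changes of DNAJB9, DNAJC3 and MANF were -0.36, -0.45 and -0.39, all called, where 62.6% of all genes were. With the GC trend removed they were -0.0048, -0.07 and -0.19, none called (adjusted p = 0.969, 0.494 and 0.0965).

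SDF2L1, a small partner of the BiP complexes, and CRELD2, a secreted protein with disulfide isomerase activity, were the members of this role with fold changes above 0, and neither was called. SDF2L1 had 12.2, 10.6 and 9.94 CPM in the wild-type lines and 9.06, 17.4 and 16.2 CPM in the clones, with K17 below all wild-type lines and K18 and K19 above them. Its log2 fold change was 0.38 (adjusted p = 0.263), -0.29 with the GC trend removed and 0.63, called, without K17. CRELD2 had 32.2, 31.6 and 27.3 CPM in the wild-type lines and 25.6, 36.4 and 33.7 CPM in the clones, overlapping between groups, and its log2 fold change was 0.07 (adjusted p = 0.712). With the GC trend removed CRELD2 was called lower at -0.22 (adjusted p = 0.0318). These 2 genes had GC contents of 66.2% and 59.8%.

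In the degradation branch, SEL1L, the adaptor of the ubiquitin ligase that removes misfolded ER protein, stood at 177, 163 and 178 CPM in the wild-type lines and 141, 116 and 132 CPM in the clones. All clones were lower and the log2 fold change was -0.41 (SE 0.08, adjusted p = 0.0101). The call ended with the GC trend removed, at -0.17 (adjusted p = 0.0507), and without WT 1 or WT 4. EDEM1, which marks misfolded glycoproteins by trimming mannose, had 106, 96.8 and 101 CPM in the wild-type lines and 87.2, 80.3 and 89.4 CPM in the clones, with no overlap and a log2 fold change of -0.25 (adjusted p = 0.0287). That call ended without the filter on low counts (adjusted p = 0.0557) and without WT 1, WT 2, WT 4, K18 or K19. HERPUD1, a scaffold of the same ligase, had 93.1, 85.8 and 81.9 CPM in the wild-type lines and 89.1, 79.5 and 80.5 CPM in the clones, with overlapping groups and a log2 fold change of -0.07 (adjusted p = 0.505), or 0.05 with the GC trend removed.

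**Figure D3:**
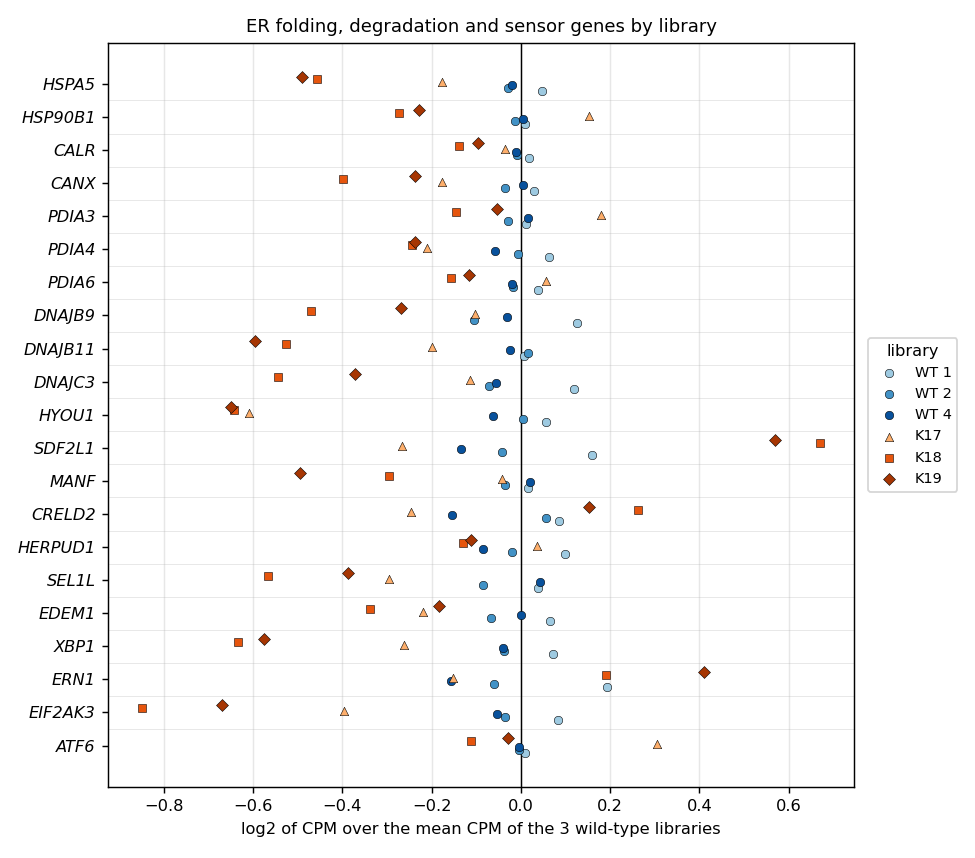
Log2 ratio to the wild-type mean for each ER chaperone, folding or degradation gene and each sensor gene in each line. K17 lies above K18 and K19 for 14 of the 17 chaperone genes, and the HYOU1 clones lie close together.

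Of the sensors and XBP1, 2 of 4 fell and none rose, where 38.7% of all tested genes were called and 20.8% were lower. EIF2AK3, encoding PERK, stood at 30.2, 27.8 and 27.4 CPM in the wild-type lines and 21.6, 15.8 and 17.9 CPM in the clones. The clones were lower in every case, and the log2 fold change was -0.63 (SE 0.13, adjusted p = 0.0107), with -0.40 (adjusted p = 0.00838) when the GC trend was removed. The call ended without WT 1, at an adjusted p of 0.0523. XBP1, the transcription factor whose mRNA IRE1 splices, stood at 121, 112 and 112 CPM in the wild-type lines and 95.9, 74.04 and 77.1 CPM in the clones. Every clone was lower and the log2 fold change was -0.48 (SE 0.11, adjusted p = 0.0147), lost as a call when WT 1, WT 4 or K19 was left out.

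ERN1, encoding IRE1, and ATF6 were not called. ERN1 was expressed at 7.32, 6.14 and 5.75 CPM in the wild-type lines and 5.76, 7.303 and 8.51 CPM in the clones, with overlapping groups and a log2 fold change of 0.17 (adjusted p = 0.487). ATF6 had 181, 179 and 179 CPM in the wild-type lines and 222, 166 and 176 CPM in the clones, where the wild-type lines were nearly equal, K17 lay above them and K18 and K19 below. Its log2 fold change was 0.07 (adjusted p = 0.649), 0.32 (adjusted p = 0.00443) and called higher with the GC trend removed, and -0.06 without K17.

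Among ATF4 and its regulators, 3 of 8 rose, none fell and 5 were not called, with a median log2 fold change of 0.34. The share called, 37.5%, was near the 38.7% of all tested genes, of which 18% were higher. With the GC trend removed the median dropped to 0.10 and 1 of the 8 was called, where 41.1% of all genes were. ATF4 itself stood at 458, 458 and 453 CPM in the wild-type lines and 449, 432 and 389 CPM in the clones. The clones were lower than every wild-type line, by an amount that did not pass the test, with a log2 fold change of -0.11 (SE 0.06, adjusted p = 0.205), or -0.15 and called without K17. PPP1R15A, also called GADD34, brings a phosphatase to eIF2 and so ends the block of translation. It stood at 94.5, 94.9 and 85.8 CPM in the wild-type lines and 127, 145 and 122 CPM in the clones. All clones were higher, and the log2 fold change of 0.52 (SE 0.08, adjusted p = 0.00445) was called in all 17 alternatives, at 0.35 with the GC trend removed.

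ATF5, a relative of ATF4 whose mRNA is likewise translated under stress, stood at 32.5, 34.7 and 29.6 CPM in the wild-type lines and 41.6, 51.8 and 53.4 CPM in the clones. All clones were higher, with a log2 fold change of 0.60 (SE 0.12, adjusted p = 0.00926), but the value was 0.18 (adjusted p = 0.2) with the GC trend removed, where the call ended. ATF5 overlaps NUP62, which had 84.0 CPM in the wild type and a log2 fold change of 0.06 (adjusted p = 0.662), so its count is uncertain without the strand setting. TRIB3, a pseudokinase that feeds back on ATF4, stood at 36.6, 37.4 and 35.3 CPM in the wild-type lines and 45.97, 42.8 and 45.1 CPM in the clones. The groups did not overlap and the log2 fold change was 0.29 (SE 0.07, adjusted p = 0.0149). With the GC trend removed its direction turned, at -0.07 (adjusted p = 0.792), and the call also ended without WT 1, WT 2 or WT 4. TRIB3 had a GC content of 62.0% and ATF5 one of 62.5%.

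DDIT3, also called CHOP, is a transcription factor linked to cell death under lasting ER stress. It had 10.98, 10.2 and 9.903 CPM in the wild-type lines and 14.01, 10.3 and 8.58 CPM in the clones, with K17 above the wild type and K19 below, and a log2 fold change of 0.08 (adjusted p = 0.749), or -0.13 without K17. DDIT3 overlaps MARS, which had 245 CPM in the wild type, and its count is therefore uncertain. CHAC1, which degrades glutathione, was expressed at only 2.39, 2.26 and 2.01 CPM in the wild-type lines and 2.32, 3.87 and 3.42 CPM in the clones, with K17 overlapping the wild type, and its log2 fold change was 0.53 (adjusted p = 0.104), or 0.72 and called without K17. With the GC trend removed the CHAC1 value was 0.11 (adjusted p = 0.554).

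SESN2, an inhibitor of mTORC1 signalling, had 20.3, 19.4 and 17.2 CPM in the wild-type lines and 16.97, 27.7 and 29.6 CPM in the clones, with K17 below every wild-type line and K18 and K19 above, and a log2 fold change of 0.38 (adjusted p = 0.195), or 0.60 and called without K17. With the GC trend removed the SESN2 value was 0.09 (adjusted p = 0.55). CEBPB, a transcription factor that pairs with ATF4, had 5.17, 6.26 and 5.47 CPM in the wild-type lines and 4.43, 5.82 and 4.12 CPM in the clones, with overlapping groups and a log2 fold change of -0.24 (adjusted p = 0.313), or -0.81 (adjusted p = 0.0509) with the GC trend removed.

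**Figure D4:**
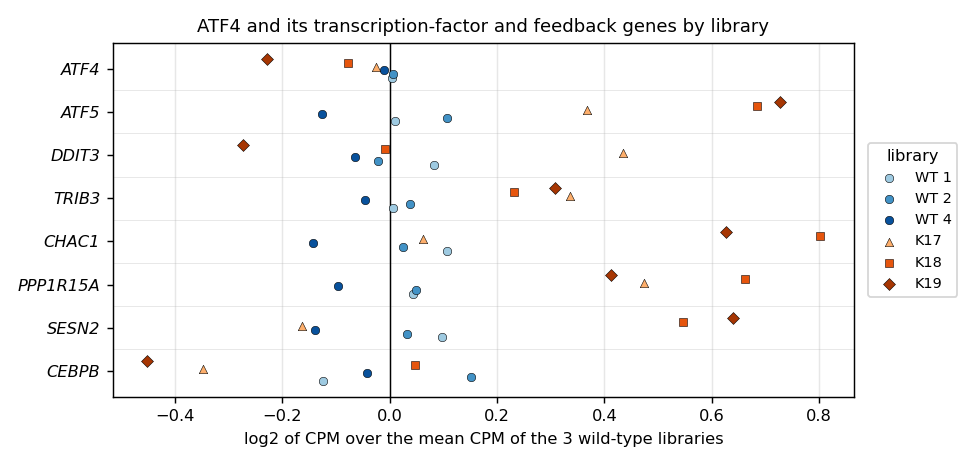
Log2 ratio to the wild-type mean for ATF4, its regulators and transcription factors in each line. PPP1R15A, ATF5 and TRIB3 lie above the wild type in all 3 clones, and for SESN2 K17 lies below the wild type while K18 and K19 lie above it.

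Levels between genes are compared per transcript length, on the deposited FPKM scale and in the wild-type lines (mean ± SD, n = 3). HSP90B1 was highest at 437 ± 2.94 FPKM, followed by CALR at 412 ± 0.925 and HSPA5 at 228 ± 4.21 FPKM. PDIA3 was next at 214 ± 3.15, and CANX (183 ± 2.68) and ATF4 (183 ± 1.85) did not differ beyond their spread. The enzymes ran from 75.5 ± 0.403 FPKM for MTHFD2, close to SHMT2 at 73.04 ± 2.67, down to 8.01 ± 0.489 for PHGDH. The lowest were CEBPB at 2.16 ± 0.234, ERN1 at 1.29 ± 0.152 and CHAC1 at 1.15 ± 0.09296 FPKM.

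The clones differed from each other more than the wild-type lines did, over the 34 genes as over all genes. The median coefficient of variation was 12.9% among clones and 4.35% among wild-type lines for the 34, and 13.2% and 4.87% for all tested genes. K17 was the highest clone for 14 of the 17 chaperones and 20 of the 34 genes, where it was highest for 39.5% of all tested genes. K17 was the lowest clone for 2 of the 17, 9 of the 34 and 41.1% of all genes. The clones differed in the trend on GC content. In the 10% of genes lowest and highest in GC, the median log2 ratio to the wild type was -0.15 and -0.08 in K17. That ratio was -0.32 and 0.79 in K18, and -0.26 and 0.79 in K19. The part of GC content in this order of the clones was not tested.

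Calls are given by exact match to an element, as a description only. Of the 10 genes with an ERSE or ERSE-II, 4 fell and none rose, with a median log2 fold change of -0.10, and of the 22 with a window and neither element 9 fell and 3 rose, with a median of -0.24, where 38.7% of all tested genes were called, 20.8% lower and 18% higher. Of the 3 genes with a CARE, ASNS was called lower at -1.19, and CHAC1 at 0.53 and HERPUD1 at -0.07 were not called. In the authors' deposited table of differential expression, 3 of the 34 genes were higher, 13 lower and 18 not called at an adjusted p below 0.05, against 28.3% of its 20833 genes called (14.4% higher and 13.8% lower), and each of the 34 had the same call as in the edgeR fit.

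The neighbouring parts of the pathway were read from 9 further gene lists, given as counts beside the 38.7% background. Of 24 other ER folding and disulfide genes, 3 rose and 9 fell (median -0.09). DNAJC1, an ER membrane DnaJ protein, rose from 43.6, 41.1 and 43.1 CPM to 81.7, 73.5 and 83.1 CPM, with a log2 fold change of 0.90 (SE 0.07, adjusted p = 0.000308). TXNDC11 rose with a log2 fold change of 0.25 (adjusted p = 0.0175), a call that ended on either FPKM scale and without WT 1, WT 2 or WT 4. HSPA13, an HSP70-like protein of the microsomes, fell from 84.9, 75.00 and 81.6 to 49.4, 37.8 and 44.00 CPM with a log2 fold change of -0.88 (SE 0.11, adjusted p = 0.00175). ERO1LB, an oxidase that recharges disulfide isomerases, fell from 6.26, 6.65 and 5.96 to 2.76, 2.35 and 1.76 CPM with a log2 fold change of -1.46 (SE 0.19, adjusted p = 0.00201).

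Of 17 tested of 18 other degradation genes, 4 rose and 4 fell (median -0.02). EDEM2, which trims the first mannose of misfolded glycoproteins, rose from 65.2, 66.99 and 63.3 to 109, 102 and 108 CPM, a log2 fold change of 0.71 (SE 0.06, adjusted p = 0.000325) in the opposite direction to EDEM1. HERPUD2 rose with a log2 fold change of 0.52 (adjusted p = 0.00303), while the lectin ERLEC1 and the ubiquitin-binding FAF2 had log2 fold changes of -0.63 (adjusted p = 0.00485) and -0.34 (adjusted p = 0.00781). FAF2 was -0.15 and ERLEC1 -0.40 with the GC trend removed. Of 18 translocon and signal peptide genes none rose and 7 fell. With the GC trend removed 6 were called higher and 2 lower, where 24.5% of all genes were called higher and 16.6% lower. SSR1 and SRPR had log2 fold changes of -0.35 (adjusted p = 0.0115) and -0.22 (adjusted p = 0.014). The call of SSR1 ended with the GC trend removed, at -0.15 (adjusted p = 0.0697), and without WT 1 or WT 4, and that of SRPR without WT 1, WT 2 or WT 4.

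Of 11 tested of 12 other transcription factors and proteases of the response, 2 rose and 3 fell. NFYA, the regulatory subunit of the NF-Y factor that binds the CCAAT part of the ERSE, fell from 96.6, 92.2 and 94.05 to 64.6, 62.9 and 63.3 CPM with a log2 fold change of -0.57 (SE 0.05, adjusted p = 0.000509). CREB3L2, an ATF6 relative, fell with a log2 fold change of -0.29 (adjusted p = 0.00771). ATF6B and MBTPS1, the protease that first cuts ATF6, rose with log2 fold changes of 0.53 (adjusted p = 0.0342) and 0.17 (adjusted p = 0.0448). The call of ATF6B ended without WT 1, WT 2, WT 4, K18 or K19, and it was 0.35 with the GC trend removed. The call of MBTPS1 ended without WT 1, WT 2, WT 4 or K19, with upper-quartile factors or none, without a filter and on the FPKM scale.

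Of 15 eIF2 kinases, phosphatases and eIF2B subunits, 1 fell and none rose, or 6.67% called. That gene, the phosphatase subunit PPP1CB, had a log2 fold change of -0.36 (adjusted p = 0.0133), -0.11 (adjusted p = 0.314) with the GC trend removed, and the call also ended without WT 1 or WT 4. With that trend removed 4 of the 15 were called higher, where 24.5% of all genes were. Of 18 cytosolic tRNA synthetases, 1 rose and 5 fell. WARS, which is also induced by interferon, rose from 241, 247 and 245 to 462, 562 and 572 CPM with a log2 fold change of 1.12 (SE 0.09, adjusted p = 0.000311). IARS and TARS had log2 fold changes of -0.31 (adjusted p = 0.00398) and -0.34 (adjusted p = 0.00409), and neither was called with the GC trend removed, at -0.08 and -0.14.

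Of 22 tested of 24 other ATF4 targets and partners, 2 rose and 8 fell (median -0.26). With the GC trend removed 2 rose and 12 fell, where 24.5% of all genes were called higher and 16.6% lower. STC2, a secreted glycoprotein induced by ER stress, fell from 179, 171 and 159 to 47.2, 70.5 and 61.2 CPM with a log2 fold change of -1.51 (SE 0.15, adjusted p = 0.000782). ALDH18A1, which starts proline synthesis, had a log2 fold change of -0.42 (adjusted p = 0.00225). PSPH, which completes the serine pathway begun by PHGDH and PSAT1, moved the other way, from 23.6, 23.7 and 25.4 to 28.3, 31.9 and 32.7 CPM, with a log2 fold change of 0.35 (SE 0.09, adjusted p = 0.019) that lost its call without WT 1, WT 2 or WT 4. ATF3, a stress-induced relative of ATF4, rose from 96.5, 113 and 109.6 to 163, 217 and 147 CPM with a log2 fold change of 0.72 (SE 0.15, adjusted p = 0.0129), lost as a call when WT 1 or WT 4 was left out.

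Outside the ER, 1 of 13 tested of 14 cytosolic heat shock genes rose and 3 fell. Of 8 mitochondrial chaperones and proteases 3 fell, but none was called with the GC trend removed, where 41.1% of all genes were. HSF2, a heat shock factor, fell from 29.5, 30.9 and 32.8 to 20.8, 19.4 and 19.2 CPM with a log2 fold change of -0.65 (adjusted p = 0.00164), or -0.38 with the GC trend removed. DNAJB4 had a log2 fold change of -0.49 (adjusted p = 0.00499) that lost its call at -0.21 (adjusted p = 0.12). HSF1, the main heat shock factor, was called higher with a log2 fold change of 0.83 (adjusted p = 0.0488), or 0.26 with the trend removed, and lost its call when any library but K17 was left out, and without the filter, with limma-voom and on the FPKM scale. The mitochondrial chaperones HSPD1 and HSPA9 had log2 fold changes of -0.32 (adjusted p = 0.00234) and -0.30 (adjusted p = 0.00303), or -0.12 and -0.11 with the trend removed.

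**Figure D5:**
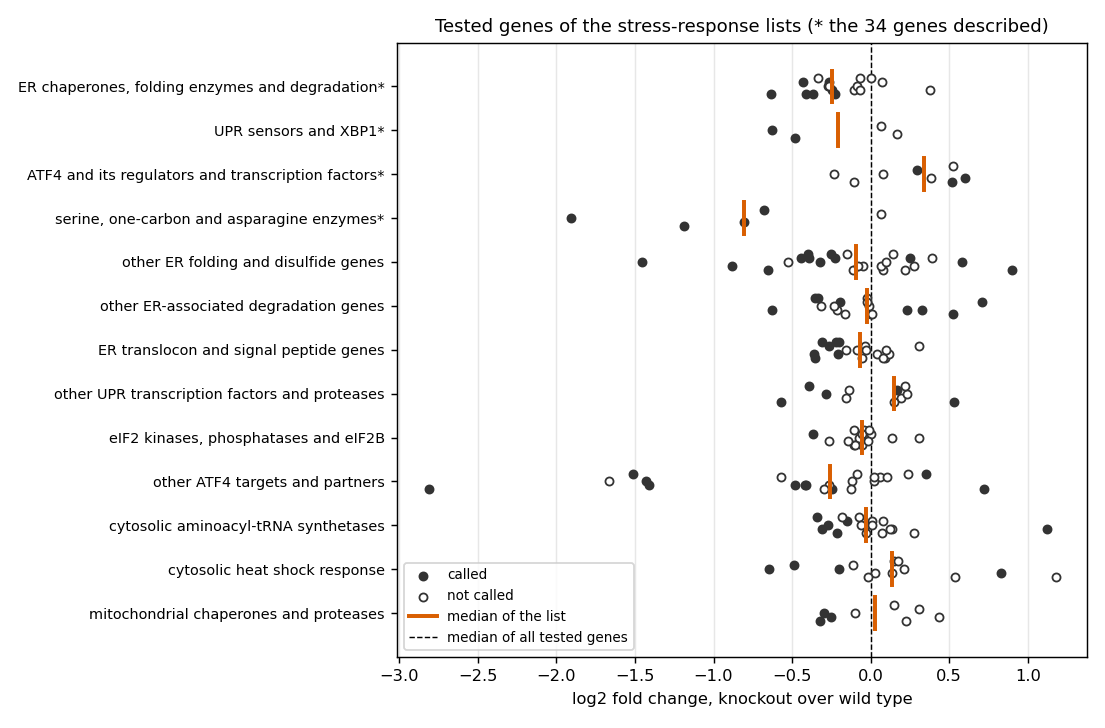
Log2 fold changes of every tested gene in the 4 groups of the 34 genes and the 9 further lists, with the median of each list. The enzymes of serine, one-carbon and asparagine synthesis have the lowest median (-0.81), and ATF4 with its regulators the highest (0.34) in this fit, but with the GC trend removed its median of 0.10 lies below those of the cytosolic heat shock (0.18) and translocon (0.11) lists.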

How the data were processed

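Per the labels' protocols, the libraries came from a strand-specific mRNA kit. STAR, HTSeq and the builds hg19 and GRCh37 are named in the submitters' processing notes. Neither annotation nor strand setting is given in the sources used here. The deposited table held raw counts and FPKM per gene symbol, per the file headers, and the authors' own comparison with a mean normalised signal per gene, log2 fold changes and p-values, also per the file headers. Of 28514 rows, 20830 had a count and 13 carried a date in place of a symbol (0.1753 to 0.1958% of counts). No replicates were merged, since the chi-square per gene between replicates, over genes with at least 20 summed counts, was 2.16 to 4.47 for wild-type pairs and 21.0 to 74.4 for clones.

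Counts were tested with edgeR 4.0.16 (quasi-likelihood, two-sided, robust, TMM factors, default filterByExpr) in R 4.3.3, 3 libraries against 3. Genes were called at a Benjamini-Hochberg adjusted p below 0.05. The SE is the log2 fold change divided by the square root of F. CPM were scaled by TMM. Alternatives used DESeq2 1.42.0, limma 3.58.1, other scalings and filters, log2(FPKM + 1) and log2(FPKM + 0.1), a lowess GC correction (span 0.3) for the 13278 genes with a GC value (91.3%), and each library left out. The fit was tested on simulated data. All 34 genes are described, and from each further list up to 2 higher and 2 lower genes with the smallest adjusted p. Members and lists were chosen with earlier results of these data known.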

Additional observations from a re-analysis of the deposited data

How the results depend on the processing

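Of 578 values (34 genes under 17 alternatives), 511 kept their direction and their side of the threshold and 21 reversed in direction. Calls were lost in 35 and gained in 14, of which 1 and 2 were among those reversed. The calls of HYOU1, PPP1R15A, ASNS, PSAT1, PHGDH and MTHFD2 held in all of them. With the GC trend removed the log2 fold changes that reversed were HSP90B1 0.13, PDIA3 0.18, PDIA6 0.10, SDF2L1 -0.29, CRELD2 -0.22, HERPUD1 0.0451, TRIB3 -0.0697 and SHMT2 -0.17. PDIA3, at -0.00 as reported, was 0.0152 with DESeq2 size factors, 0.0143 without a filter, 0.038 with a filter of 1 CPM in 3 libraries and 0.0113 in DESeq2. With 1 library left out, the log2 fold change ran from -0.0924 to 0.088 for PDIA3, from -0.014 to 0.21 for CRELD2, from -0.0633 to 0.17 for ATF6, from -0.13 to 0.25 for DDIT3 and from -0.0455 to 0.20 for SHMT2. The number of all tested genes called was 5637, 2887 at an adjusted p below 0.01, and 3020 to 9267 with 1 library left out. Members called lower were 13, 5 at an adjusted p below 0.01, and 5 to 20 with 1 library left out. Members called higher were 3, and 2 to 7 with 1 library left out. The cause of these changes was not tested. Of 28 further named genes, PDCD10 included, 14 kept their call in every alternative run on them, a check chosen after seeing the data, and none reversed. No paired analysis was possible because the labels give the wild-type lines the numbers 1, 2 and 4 and the clones 17, 18 and 19, with none shared. How much of the spread is counting error was not tested.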
